A study of Homo sapiens with 2 samples.

Results

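Lysosomal and autophagy genes were examined in SW48 cells, an established human colorectal cancer line, after a small interfering RNA (siRNA) against the transcription factor YY1 (siYY1) or a negative control siRNA (siControl). Each siRNA was used at a final 5 nmol/L, cells were grown for 3 days, and total RNA from each condition was hybridised to 1 whole-transcript GeneChip. The list held 52 genes, taken by gene symbol, out of 17687 genes with a named probe. Of these, 49 had a probe, each with 1, while NPC2, GLB1 and NEU1 had none in the table used and were not analysed here. A gene was kept when its log2 values averaged 7.54 or more over the arrays, which is the median over all named genes. The filter kept 8844 genes, 47 of them members, and left out TFEB and CTSL. The knockdown rested on 1 siRNA sequence, and YY1 mRNA was not analysed here.

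Lysosomes are acidic compartments in which hydrolases break down proteins, glycans and lipids. The vacuolar ATPase (V-ATPase) pumps protons into their lumen, and membrane proteins carry the products out or release calcium. Autophagy delivers cytoplasmic cargo to lysosomes in a double-membraned vesicle, whose growth depends on lipidated proteins of the ATG8 family. Many of these genes are controlled by the related factors TFEB and TFE3, which the kinase complex mTORC1 holds in the cytoplasm when nutrients are plentiful, and which bind the palindromic CLEAR element in promoters.

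Each condition had 1 array, so no difference has a replicate error or a test. All differences are siYY1 minus siControl of the deposited log2 values, and they describe these arrays. As the RNA came from whole cultures, a change in the mix of cells and a change in RNA per cell cannot be told apart. The arrays had nearly the same median over 21448 probes, 7.10 in siYY1 and 7.11 in siControl. Of 12 colon epithelial markers, 11 had a probe and 7 passed the filter, namely EPCAM, CDH1, KRT8, KRT18, KRT19, CDX2 and CEACAM5. Their differences were 0.19 for EPCAM, 0.16 for CDX2, 0.02 for CDH1, 0.01 for KRT8, -0.20 for KRT18, -0.34 for KRT19 and -1.38 for CEACAM5. CDX1, VIL1, LGALS4 and GPA33 lay under the filter. Macrophages are rich in lysosomes, and all 11 of their markers lay under the filter. Their summed signal was 9.02 in siYY1 and 9.00 in siControl on the log2 scale, with single markers from 3.24 to 6.81 in siYY1 and from 3.02 to 6.85 in siControl. Markers of other leukocytes and of endothelium also lay under the filter (5 with a probe in each list), and of 6 fibroblast markers COL1A2 alone passed it, at 9.05 in siYY1 and 8.60 in siControl.

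Most members were slightly higher in siYY1, and few passed a fixed size. Of 47 kept members, 37 (78.7%) had a difference above 0, against 50.4% of all kept genes, and their median difference was 0.19 against 0.00 over all kept genes. At a threshold of 1.5-fold, 3 members were higher, SMPD1, MAP1LC3B and OPTN, and 0 were lower. That is 6.38% of the members, where 3.04% of all kept genes were that much higher and 3.78% that much lower. At a lower threshold, a log2 difference of 0.32 (25% higher or 20% lower on the linear scale), 15 members (31.9%) were higher, against 12.2% of all kept genes, and 3 members (6.38%) were lower, against 13.5%. Bright genes scatter less than dim ones. Members ranged in mean level from 8.47 to 15.56, and between their lower and upper quartiles of level (10.32 to 13.27, a range chosen after seeing the data) 7 of 23 members and 11.4% of kept genes were higher by 0.32 or more.

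**Figure D1:**
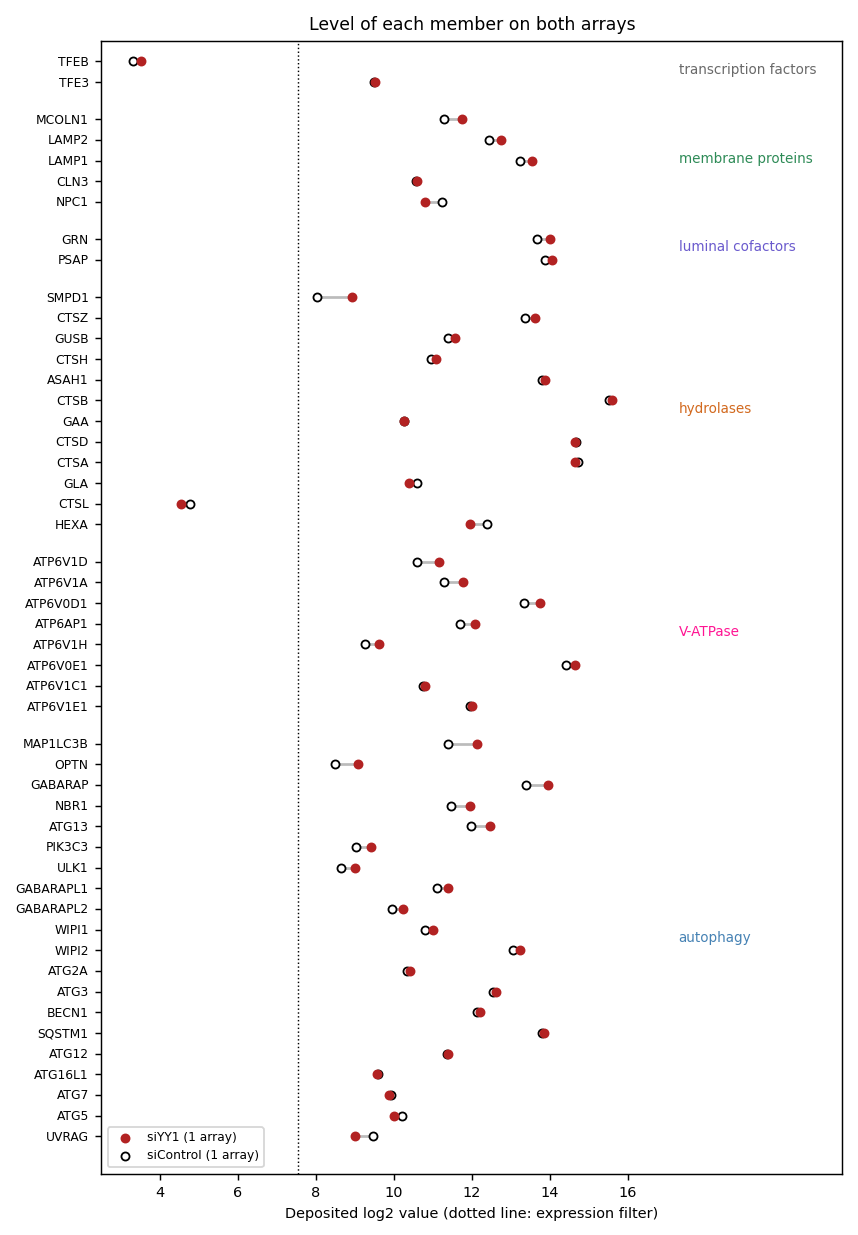
Deposited log2 value (x axis) of each of the 49 members with a probe, by role, in siYY1 (filled) and siControl (open), 1 array each. TFEB and CTSL lie left of the dotted filter line at 7.54, and the widest gap is that of SMPD1 (8.92 in siYY1 and 8.02 in siControl).

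**Figure D2:**
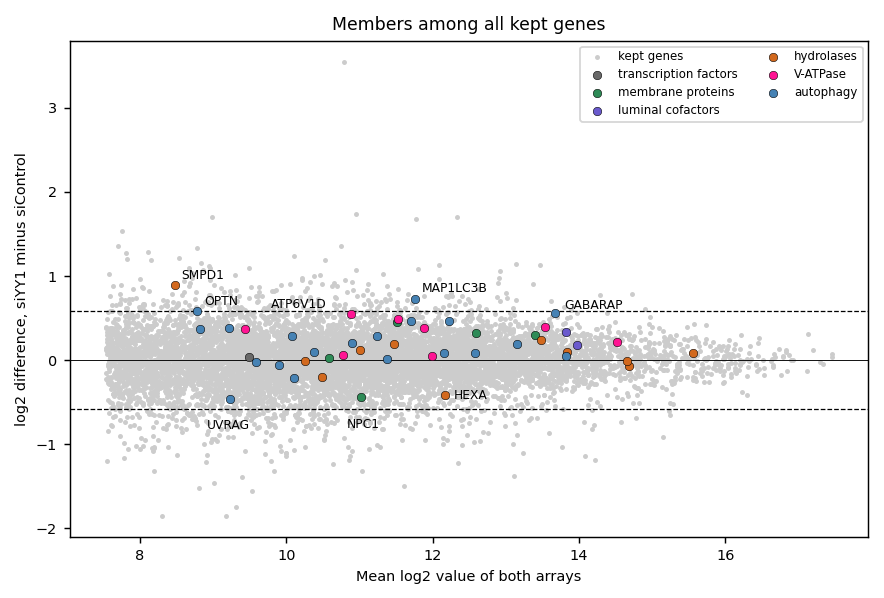
Difference of siYY1 minus siControl (y axis, log2) against the mean log2 value of both arrays (x axis) for 8844 kept genes in grey and 47 kept members coloured by role. Dashed lines mark 1.5-fold, and 3 members lie on or above the upper line and 0 below the lower one.

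Promoters of the members were searched for the CLEAR core and for a core of the YY1 motif. RefSeq windows of assembly GRCh38.p14, from 250 bases before to 50 after each start site, were matched for 42 of 52 members, 9 of them with more than 1 start site. The 10 without an entry were ASAH1, ATP6V0E1, ATP6V1A, ATP6V1C1, ATP6V1H, CTSB, HEXA, LAMP2, PSAP and UVRAG. TCACGTGA, the CLEAR core and a palindrome, occurred in 7 of the 42 (16.7%), namely MCOLN1, ATP6V0D1, LAMP1, ATG3, CLN3, GAA and CTSA. It occurred in 12 of 144 other lysosome and autophagy genes (8.33%), in 2.51% of kept genes and in 1.18% of all 27305 genes in the table, counting any start site of a gene. The core contains the E-box CACGTG, which was in 9 members (21.4%), the same 7 with CTSD and NEU1. It was in 33 of the 144 other pathway genes (22.9%) and in 13.2% of kept genes. The YY1 core AANATGGC, searched on both strands, was in 3 members (7.14%), NBR1, GUSB and ATG12. It was in 22 of the 144 other pathway genes (15.3%), in 14% of kept genes and in 7.97% of all genes in the table. A match describes letters in a window and shows no binding.

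Sequence before the start site is shown for the members in which a whole CLEAR core or YY1 core lay upstream, with the core in capitals. E-boxes outside these cores are not marked. These windows show how close the CLEAR cores stood to the start sites of MCOLN1, ATP6V0D1 and LAMP1, which were higher, and of CTSA and GAA, whose differences were -0.07 and -0.01. Positions are counted so that -1 is the base just before the start site, and every line reads 5′ to 3′ on the strand of the gene. The MCOLN1 window is chr19:7522522-7522623 (plus strand), with cores beginning at -42 and -15. That of ATP6V0D1 is chr16:67481158-67481277 (minus strand), with its core at -60. The LAMP1 window is chr13:113297150-113297238 (plus strand), with a core at -29, and a further core at -2 runs past the start site and is not capitalised. That of CTSA is chr20:45891249-45891334 (plus strand), with its core at -26, and that of GAA is chr17:80101444-80101580 (plus strand), with cores at -77 and -32. For the YY1 core, the windows are chr17:43171146-43171213 (plus strand) for NBR1 at its second start site, where the motif reads on the opposite strand, and chr7:65982237-65982364 (minus strand) for GUSB.
MCOLN1: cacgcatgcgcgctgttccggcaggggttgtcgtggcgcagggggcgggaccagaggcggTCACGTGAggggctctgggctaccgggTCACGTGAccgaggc
ATP6V0D1: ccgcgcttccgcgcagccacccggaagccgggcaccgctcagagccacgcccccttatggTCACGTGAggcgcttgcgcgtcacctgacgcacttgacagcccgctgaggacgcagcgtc
LAMP1: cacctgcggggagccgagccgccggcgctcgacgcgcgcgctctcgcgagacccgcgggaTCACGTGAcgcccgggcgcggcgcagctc
CTSA: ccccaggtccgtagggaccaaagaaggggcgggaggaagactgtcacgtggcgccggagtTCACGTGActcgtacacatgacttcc
GAA: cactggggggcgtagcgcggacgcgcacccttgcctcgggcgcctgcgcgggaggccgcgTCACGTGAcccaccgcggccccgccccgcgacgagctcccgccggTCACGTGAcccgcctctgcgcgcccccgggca
NBR1: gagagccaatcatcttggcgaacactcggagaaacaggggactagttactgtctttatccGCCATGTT
GUSB: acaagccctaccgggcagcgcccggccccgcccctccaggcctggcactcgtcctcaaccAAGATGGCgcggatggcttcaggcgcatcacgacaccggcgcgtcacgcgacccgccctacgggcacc

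The differences of members with and without the CLEAR core overlapped. The 7 kept members with it had a median difference of 0.09, from -0.07 to 0.45, and 2 of them were higher by 0.32 or more. The 30 kept members whose windows lacked it had a median of 0.20, from -0.44 to 0.90, and 11 were higher by 0.32 or more. Of all kept genes, 12.2% were that much higher. MCOLN1, LAMP1 and GAA each had a pair of cores, and they differed by 0.45, 0.30 and -0.01. SMPD1, MAP1LC3B and OPTN, the members past 1.5-fold, had none of the 3 motifs in the windows searched. The 3 members with the YY1 core differed by 0.47 (NBR1), 0.20 (GUSB) and 0.02 (ATG12).

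**Figure D3:**
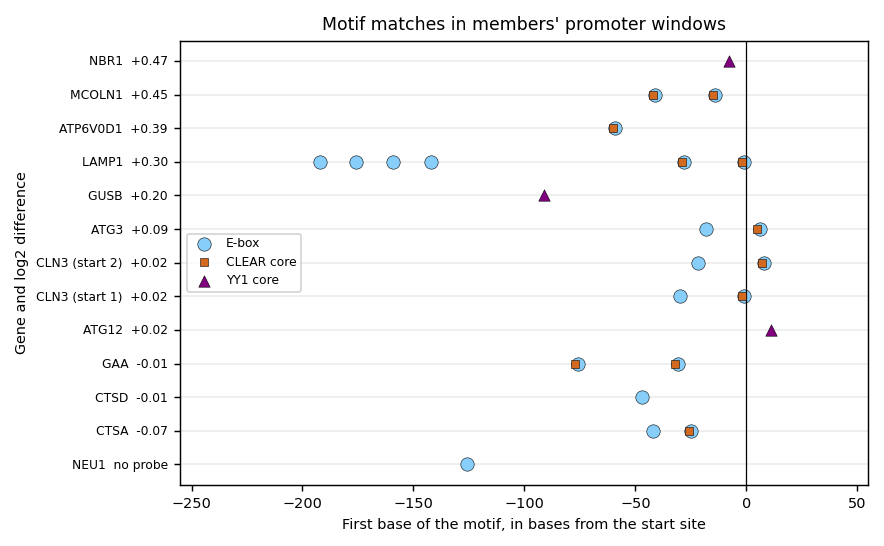
Position of each motif match (x axis, bases from the start site, negative before it) in the promoter windows of members, ordered by log2 difference of siYY1 minus siControl, which is printed beside the name. CLEAR cores lie from -77 to 7, while their genes differ by between -0.07 and 0.45.

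Of the transcription factors that drive lysosomal genes, TFE3 had 9.51 in siYY1 and 9.48 in siControl, a difference of 0.03. TFEB had 3.51 in siYY1 and 3.31 in siControl, both far under the filter, so its level was not shown to be above background. MITF and TFEC, which are not members, also lay under the filter. MITF had 7.46 in siYY1 and 6.99 in siControl, a difference of 0.47, and TFEC differed by 0.23. The mRNA of these factors does not report where their proteins are in the cell.

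The membrane proteins split, with 4 of 5 higher in siYY1, against 50.4% of all kept genes, and a median of 0.30. MCOLN1, the lysosomal calcium channel TRPML1, had 11.74 in siYY1 and 11.29 in siControl, or 1.37-fold higher. The abundant glycoproteins of the lysosomal membrane moved by less, with LAMP2 at 12.75 in siYY1 and 12.43 in siControl and LAMP1 at 13.54 in siYY1 and 13.24 in siControl, differences of 0.319 and 0.298 that were both short of the lower threshold (0.322). NPC1, which exports cholesterol from the lysosome, was 1.36-fold lower, at 10.80 in siYY1 and 11.24 in siControl. It was the one member of this group that was lower. CLN3, a membrane protein mutated in juvenile Batten disease, had 10.60 in siYY1 and 10.58 in siControl. The proteins that act in the lumen without being enzymes were both higher. GRN, which encodes progranulin, had 14.00 in siYY1 and 13.66 in siControl (1.26-fold higher), and PSAP, the precursor of the saposins that present sphingolipids to hydrolases, had 14.06 in siYY1 and 13.89 in siControl.

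The hydrolases showed little shift as a group, with 6 of 11 kept members above 0, 5 below 0 and a median of 0.08. Of all kept genes, 50.4% were above 0. Those past the lower threshold were SMPD1, which was higher (9.09%, against 12.2% of all kept genes), and HEXA, which was lower (9.09%, against 13.5%). SMPD1, an acid sphingomyelinase that cleaves sphingomyelin to ceramide, had 8.92 in siYY1 and 8.02 in siControl, a difference of 0.90 or 1.86-fold. Of all kept genes, 0.588% differed by more in that direction. SMPD1 also had the lowest mean level of the kept members, 8.47, and dim genes scatter more than bright ones. ASAH1, the acid ceramidase that acts on the product of SMPD1, had 13.88 in siYY1 and 13.79 in siControl. The differences of the 2 enzymes of this short pathway were 0.90 and 0.09 on these arrays, and whether they are truly unlike was not tested.

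None of the 5 kept cathepsins among the members reached the lower threshold. Of all kept genes, 12.2% were higher and 13.5% lower by that much, and a count of 0 in 5 genes is close to these shares. The cysteine protease CTSZ had 13.61 in siYY1 and 13.36 in siControl, a difference of 0.24. CTSH had 11.07 in siYY1 and 10.94 in siControl, and CTSB had 15.60 in siYY1 and 15.52 in siControl. CTSD, the main aspartic protease of the lysosome, stood at 14.65 in siYY1 and 14.66 in siControl. CTSA, a carboxypeptidase that also stabilises neuraminidase and beta-galactosidase, had 14.65 in siYY1 and 14.71 in siControl. CTSL was under the filter, at 4.54 in siYY1 and 4.77 in siControl.

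Among the glycosidases, 1 of 4 kept members was above 0, against 50.4% of all kept genes, and GAA lay at -0.01. HEXA, the alpha subunit of beta-hexosaminidase A, which degrades the ganglioside GM2, was 1.34-fold lower, with 11.96 in siYY1 and 12.38 in siControl. GLA, the alpha-galactosidase deficient in Fabry disease, had 10.39 in siYY1 and 10.59 in siControl. GUSB, a beta-glucuronidase of glycosaminoglycan breakdown, had 11.57 in siYY1 and 11.38 in siControl. GAA, which degrades glycogen, stood at 10.26 on both arrays.

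All 8 V-ATPase members were above 0, against 50.4% of all kept genes, with a median of 0.37. Of them, 5 were higher by 0.32 or more, as were 12.2% of all kept genes. None reached 1.5-fold. In the cytosolic V1 sector, ATP6V1D, part of the central rotor, had 11.16 in siYY1 and 10.60 in siControl (1.47-fold higher). ATP6V1A, the catalytic subunit, had 11.77 in siYY1 and 11.28 in siControl, and ATP6V1H, a regulatory subunit, had 9.63 in siYY1 and 9.26 in siControl. The stalk subunits of the same sector differed little, with ATP6V1C1 at 10.80 in siYY1 and 10.74 in siControl and ATP6V1E1 at 12.01 in siYY1 and 11.96 in siControl. Differences in this sector thus ran from 0.05 for ATP6V1E1 to 0.55 for ATP6V1D. Whether its subunits truly differ in shift was not tested. In the membrane V0 sector, ATP6V0D1, which couples the rotor to the proton channel, had 13.73 in siYY1 and 13.34 in siControl, a difference of 0.39. ATP6V0E1 differed by 0.22, with 14.64 in siYY1 and 14.42 in siControl. The accessory protein gene ATP6AP1, needed for assembly of the pump, had 12.07 in siYY1 and 11.69 in siControl.

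Of the 20 autophagy members, 16 were above 0 and the median was 0.20, but the steps of the pathway differed. All 4 ATG8 family genes among the members were higher. MAP1LC3A (0.11) and MAP1LC3C (-0.16), which are not members, lay under the filter. MAP1LC3B, which encodes the autophagosome marker LC3B, had 12.12 in siYY1 and 11.39 in siControl, a difference of 0.73 or 1.65-fold, and 1.42% of kept genes differed by more in that direction. GABARAP had 13.96 in siYY1 and 13.39 in siControl, 1.48-fold higher and just short of the threshold. GABARAPL1 had 11.39 in siYY1 and 11.10 in siControl, and GABARAPL2 had 10.23 in siYY1 and 9.94 in siControl, each with a difference of 0.29. MAP1LC3B2, a close copy of MAP1LC3B and not a member, had 7.38 in siYY1 and 6.54 in siControl. Both values were under the filter, and the probes of such copies may not separate them, so the value of MAP1LC3B is uncertain to that degree.

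The 5 members that attach ATG8 proteins to lipid had a median difference of -0.03, and 0 passed the lower threshold. Of all kept genes, 12.2% were higher and 13.5% lower by that much, so a count of 0 in 5 genes does not set them apart. ATG7, the activating enzyme, had 9.86 in siYY1 and 9.93 in siControl, and ATG3, the conjugating enzyme, had 12.63 in siYY1 and 12.54 in siControl. The complex that directs the last step was ATG12 (11.39 in siYY1 and 11.37 in siControl), ATG5 (10.00 in siYY1 and 10.21 in siControl) and ATG16L1 (9.57 in siYY1 and 9.60 in siControl). Their differences ran from -0.21 for ATG5 to 0.02 for ATG12. ATG10, which passed the filter and is not a member, differed by 0.42.

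Receptors that tether ubiquitinated cargo to ATG8 proteins were uneven. OPTN, a receptor for mitochondria and bacteria, had 9.08 in siYY1 and 8.49 in siControl, a difference of 0.59 that lies on the threshold of 1.5-fold. With the differences centred on the median of kept genes it fell just short, which left 2 members past 1.5-fold. The mean level of OPTN was 8.78, the lowest of the kept members after SMPD1. NBR1, a receptor for protein aggregates and peroxisomes, was 1.39-fold higher, at 11.94 in siYY1 and 11.47 in siControl. SQSTM1, which encodes p62, had 13.84 in siYY1 and 13.80 in siControl, so the best known receptor differed by 0.04.

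Upstream of these steps, the genes for initiation and phagophore growth were all above 0, with a median of 0.21 over 5 genes. Of all kept genes, 50.4% were above 0. ATG13, a subunit of the ULK1 kinase complex, had 12.45 in siYY1 and 11.99 in siControl, and ULK1 itself had 9.01 in siYY1 and 8.63 in siControl, which are 1.38-fold and 1.30-fold higher. The lipid binding proteins WIPI1 and WIPI2 and the lipid transfer protein ATG2A differed by 0.21, 0.19 and 0.09. In the phosphatidylinositol 3-kinase complexes, the catalytic subunit gene PIK3C3 (VPS34) had 9.41 in siYY1 and 9.02 in siControl, 1.31-fold higher. The scaffold gene BECN1 had 12.20 in siYY1 and 12.12 in siControl. UVRAG, the subunit of the complex that acts in vesicle maturation and endocytic traffic, had 9.00 in siYY1 and 9.46 in siControl. At 1.38-fold lower it had the most negative difference of the kept members, and it differed from its partner PIK3C3 in direction.

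**Figure D4:**
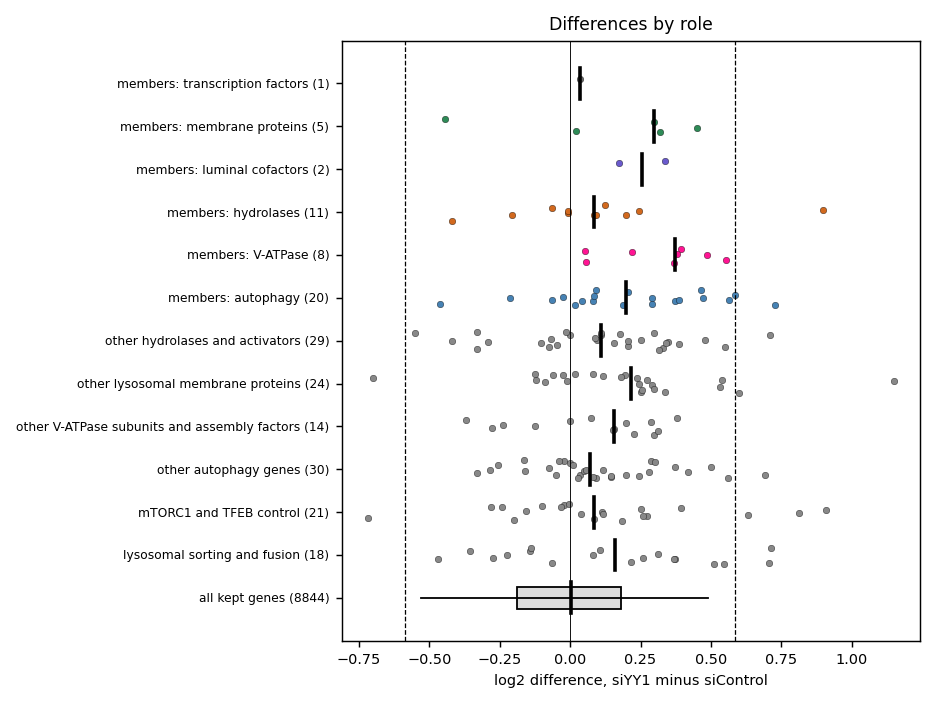
Difference of siYY1 minus siControl (x axis, log2) of kept genes by role, with points for genes, thick bars for medians and the number of genes in brackets. The box for all kept genes shows the quartiles with whiskers to the 5th and 95th percentiles, dashed lines mark 1.5-fold, and the V-ATPase members have the highest median of the groups (0.37).

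Other genes of the same pathways, listed by role with earlier results of these data known, gave a wider view. Of 189 such genes, 166 had a probe and 136 passed the filter. Of these, 88 (64.7%) were above 0, against 50.4% of all kept genes, with a median of 0.11. Past 1.5-fold there were 9 higher (6.62%, against 3.04% of all kept genes) and 2 lower (1.47%, against 3.78%). The median was 0.22 for 24 other membrane proteins, 0.16 for 18 sorting and fusion genes, 0.15 for 14 other V-ATPase genes, 0.11 for 29 other hydrolases, 0.08 for 21 genes of mTORC1 and TFEB control and 0.07 for 30 other autophagy genes. Of the 14 other V-ATPase genes, 10 were above 0 and 4 below 0, among the latter ATP6AP2 (-0.28) and ATP6V0A2 (-0.24). DMXL1 was higher by 0.32 or more (7.14%, against 12.2% of all kept genes) and DMXL2 lower by as much (7.14%, against 13.5%). All of these genes were named after their values were seen.

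Among other membrane proteins, SLC29A3, a lysosomal nucleoside transporter, was 2.22-fold higher, with 9.41 in siYY1 and 8.26 in siControl. The proton-coupled amino acid transporter SLC36A1 had 10.58 in siYY1 and 9.98 in siControl. In the opposite direction, TMEM106B, a lysosomal membrane protein and a risk modifier in frontotemporal dementia caused by GRN mutations, was 1.62-fold lower, at 11.74 in siYY1 and 12.44 in siControl. HGSNAT, an acetyltransferase of heparan sulfate breakdown, had 13.28 in siYY1 and 12.57 in siControl. NRBF2, a subunit of the BECN1 and PIK3C3 complex, had 8.96 in siYY1 and 8.26 in siControl. Subunits of the HOPS complex, which fuses vesicles with lysosomes, differed in direction. VPS33A had 12.00 in siYY1 and 11.29 in siControl, and VPS18 had 10.54 in siYY1 and 9.84 in siControl. Of the other kept subunits, VPS11 differed by 0.26, VPS39 by -0.22 and VPS41 by -0.27.

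The list for mTORC1 and TFEB control had 21 kept genes. Past 1.5-fold, DDIT4, SESN2 and RRAGB were higher (14.3%, against 3.04% of all kept genes). LAMTOR2 was lower (4.76%, against 3.78%). DDIT4, a stress-induced inhibitor of mTORC1, had 11.57 in siYY1 and 10.66 in siControl, and SESN2, a leucine sensor, had 10.03 in siYY1 and 9.22 in siControl. Other genes that restrain mTORC1 lay nearer to 0, with TSC1 at 0.12, DEPDC5 at 0.08, TSC2 at 0.04, NPRL3 at -0.10 and NPRL2 at -0.24. Of the Rag and Ragulator proteins that bring mTORC1 to the lysosome, RRAGB had 8.60 in siYY1 and 7.97 in siControl. Its mean level was 8.29, and dim genes scatter more than bright ones. LAMTOR2 was 1.64-fold lower, at 9.85 in siYY1 and 10.57 in siControl. The other kept genes of these complexes differed by less, with RRAGC at 0.25, LAMTOR4 at 0.19, LAMTOR3 at -0.02, RRAGA at -0.03 and LAMTOR5 at -0.20.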

How the data were processed

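The authors deposited 1 summarized value per probe, used here as log2 values. The log base was read from the values. Software, background correction and normalization: not given in the sources used here. Sorted, the arrays matched to within 0.153 at every rank. The array protocol (total RNA, biotin-labelled sense cDNA) is taken from the labels, and groups from sample titles. The platform annotation gave 1 gene to 17709 of 21448 probes, several to 0 and none to 3739, and Entrez identifiers in a RefSeq table changed 0 symbols. Probes of a gene were averaged. The mean of both arrays had to reach 7.54. With 1 array per group no test was run. Members, lists and thresholds were chosen with earlier results of these data known. Text values follow a rule: members 0.32 or more apart, the ends of each role, and other pathway genes past 1.5-fold; the remaining members are given for completeness. Counting was tested on simulated data with differences well past the threshold and little noise, which checks the code only. The motif search was tested on short made-up sequences. Alternatives were other filters, thresholds, scalings and the brightest probe. The number of arrays limits precision. Python 3.11.15, numpy 2.4.6, pandas 2.3.3, statsmodels 0.14.6 and matplotlib 3.10.9 were used.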

Additional observations from a re-analysis of the deposited data

How the results depend on the processing

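No replicate check exists, so the alternatives show dependence on processing only. A median counted as shifted when it moved by 0.1 or more and a count when it moved by over 1.5 times. The median over members ran from 0.17 (lowess centring) to 0.21 (upper quartile filter) against 0.19, and the V-ATPase and autophagy medians also moved by less than 0.1 under each alternative. For 18 members 0.32 or more apart, all 54 values under the 3 other scalings kept their direction, and the largest move was 0.036. Each member has 1 probe, so taking the brightest probe could change none of them. The count of members 1.5-fold higher was 3, against 3.04% of all kept genes. At the lower threshold it was 15, against 12.2% of kept genes, and 3 members were lower in place of 0, against 13.5%. It was 0 at 2-fold, against 0.373% of kept genes. With median centring it was 2, against 2.99% of kept genes, since OPTN lay on the threshold. The upper quartile filter left 31 members, 1 of them higher, as were 1.97% of the genes it kept. Between the members' quartiles of level, a range chosen after seeing the data, 23 members were left. Of these 1 was higher, as were 2.6% of the genes in the range. In that range the hydrolase median was -0.041 against 0.083, and the membrane protein median 0.17 against 0.30, over fewer genes.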

Other observations

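Several genes of the same pathways lay under the expression filter and were past 1.5-fold, and were chosen after their values were seen. Without the filter, 3.98% of all 17687 genes were that much higher and 3.90% that much lower. MAP1LC3B2, described above, was among these pathway genes at 1.79-fold higher. The lipid-binding protein gene ZFYVE1 had 7.0 in siYY1 and 6.24 in siControl. ULK2, the paralog of ULK1, had 4.56 in siYY1 and 5.22 in siControl. ATG9B had 4.25 in siYY1 and 3.66 in siControl, and ATP6V1C2, the paralog of ATP6V1C1, had 5.76 in siYY1 and 6.35 in siControl. Whether such signals exceed background was not tested.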
